A study of Mus musculus with 16 samples.

Results

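Small leucine-rich proteoglycans are secreted matrix proteins with a core of leucine-rich repeats and, in most members, attached sugar chains. The 8 family genes described here were Lum, Dcn, Bgn, Fmod, Ogn, Omd, Prelp and Aspn. They were chosen as members of the family, with earlier results of these data known, and matched to the gene names printed on the array, where each was found with 1 probe. Of the 8, 6 passed the filter on dim probes and belong to the 24181 genes tested, while Omd and Aspn did not.

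The RNA came from sorted mouse macrophages and was hybridized to 16 one-color arrays. YFP+ and YFP- macrophages of pancreatic tumors, here called tumor YFP+ and tumor YFP-, had 5 arrays each, and those of normal pancreas, called normal YFP+ and normal YFP-, had 3 each. The labels give female C57/B6 animals aged 8 to 10 weeks for all 4 groups, describe the tumors as implanted, and leave the genotype of every sample unstated. The series' design text names wild-type, KPC and FLT3-CRE/LSL-YFP animals without tying them to samples. In such reporter mice the Flt3 promoter, active in early blood progenitors, drives a Cre recombinase that switches on YFP for good, and YFP- cells are those in which this did not happen. Samples carry a number in their titles, shared by a YFP+ and a YFP- array, and the labels do not say whether it marks the mouse. P-values therefore measure the spread between these arrays.

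Members of the family bind collagen fibrils and set their spacing and width, and several hold growth factors of the TGF-β family in the matrix. Fibroblasts and, in the pancreas, stellate cells are known as their main source, and pancreatic ductal adenocarcinoma is known for a dense stroma rich in them. Soluble biglycan and decorin are also known as ligands of Toll-like receptors on macrophages. In bulk samples such as these, fewer cells of a type and less RNA per cell cannot be told apart.

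Signals are given as log2 processed signal relative to the 75th percentile of the same array, so that 0 stands for that percentile. Between 64.9% and 75.4% of the probes on an array were well above background by the scanner software's call, and the 75th percentile lay between 2167 and 3388 intensity units. The 15 macrophage markers were all well above background on all 16 arrays. Their summed signal, in multiples of the 75th percentile, ranged from 375 to 480 in tumor YFP+ and from 354 to 515 in tumor YFP- arrays. In normal pancreas it ranged from 424 to 524 in YFP+ and from 382 to 655 in YFP- arrays. Markers of other cells were present as well.

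The probes of Dcn and Bgn are shown because these genes were measured above background on every array and fell between the tumor populations. Positions are those of the scanner files, on mouse genome build mm9, and capitals mark the stop codon in the Dcn probe. The Dcn probe lies at chr10:96980233-96980292 and the Bgn probe at chrX:70738554-70738613, both on the plus strand.
Dcn probe: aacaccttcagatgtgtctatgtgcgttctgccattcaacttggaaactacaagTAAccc
Bgn probe: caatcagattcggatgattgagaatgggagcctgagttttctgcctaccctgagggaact

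The other probes lie at chr10:97035210-97035269 (Lum), chr1:135943998-135944057 (Fmod), chr1:135806855-135806914 (Prelp, minus strand), chr13:49719549-49719608 (Ogn), chr13:49687847-49687906 (Omd) and chr13:49662479-49662538 (Aspn). The Prelp probe is annotated in the file to a cDNA clone rather than to a RefSeq transcript. Most of the family sits in small clusters: by the RefSeq annotation of GRCm38.p6, Dcn and Lum are direct neighbours on chromosome 10, Prelp and Fmod on chromosome 1, and Aspn, Omd and Ogn on chromosome 13, with 0 protein-coding genes between them. Bgn lies apart on chromosome X.

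RefSeq promoter entries (GRCm38.p6) were found for 6 of the 8 genes, Lum and Dcn not being listed. The 250 bases before the start are shown for a gene that fell between the tumor populations (Bgn), for one measured above background on few arrays (Ogn) and for one with a small difference (Fmod). Capitals mark matches, on either strand, to TATAAA (the TATA box), CCAAT (the CCAAT box), GGGCGG (the core of the GC box), TGANTCA (the AP-1 motif) and GGAATG (the TEAD motif). The promoters lie on the plus strand at chrX:73483351-73483600 (Bgn), chr13:49607765-49608014 (Ogn) and chr1:134037004-134037253 (Fmod).
Bgn promoter: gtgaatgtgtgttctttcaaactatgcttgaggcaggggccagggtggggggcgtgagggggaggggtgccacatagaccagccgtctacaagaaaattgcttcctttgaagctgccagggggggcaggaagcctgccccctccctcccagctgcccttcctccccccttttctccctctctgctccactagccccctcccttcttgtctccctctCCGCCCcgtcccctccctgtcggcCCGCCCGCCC
Ogn promoter: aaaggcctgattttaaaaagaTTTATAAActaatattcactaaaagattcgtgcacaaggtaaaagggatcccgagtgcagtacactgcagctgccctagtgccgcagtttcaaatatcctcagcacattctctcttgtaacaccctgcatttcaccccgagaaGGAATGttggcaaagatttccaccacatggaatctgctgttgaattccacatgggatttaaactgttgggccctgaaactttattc
Fmod promoter: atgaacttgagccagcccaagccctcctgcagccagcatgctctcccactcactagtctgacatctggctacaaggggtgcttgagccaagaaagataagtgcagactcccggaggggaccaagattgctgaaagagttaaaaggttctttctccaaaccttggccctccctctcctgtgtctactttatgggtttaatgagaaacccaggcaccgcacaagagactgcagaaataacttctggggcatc

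The Bgn window is the richest in G and C of the 3 (64.4%, against 42.0% for Ogn and 51.2% for Fmod, and a median of 52.4% over all promoters). It holds 3 matches to GGGCGG, of which 2 share bases, and this motif occurs in 32.7% of the 32851 promoters of the same length. The Ogn window holds 2 overlapping matches to TATAAA, one on each strand, and 1 to GGAATG, motifs that occur in 12.4% and 12.6% of promoters. None of the 5 motifs was matched in the Fmod window, where CCAAT (33.8% of promoters) and TGANTCA (6.75%) were searched as well. These are matches of letters only.

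The first comparison asked how YFP+ and YFP- macrophages of the tumors differ in these genes. Lum, Dcn and Bgn fell in tumor YFP+ arrays, with log2 differences of -5.61, -5.15 and -4.58, and 0 members rose. Thus 3 of the 6 members tested were called lower, against 1.63% of all 24181 genes (0.761% were higher, 2.39% changed in either direction). Since the members were chosen with earlier results known, this share is a description. The members' median fitted difference was -4.08, or -2.48 with Lum and Ogn, which were below background on every tumor YFP+ array, at their bounds, and that of all genes was 0.00218. Fmod, Ogn and Prelp did not pass the threshold of an adjusted p under 0.05.

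**Figure D1:**
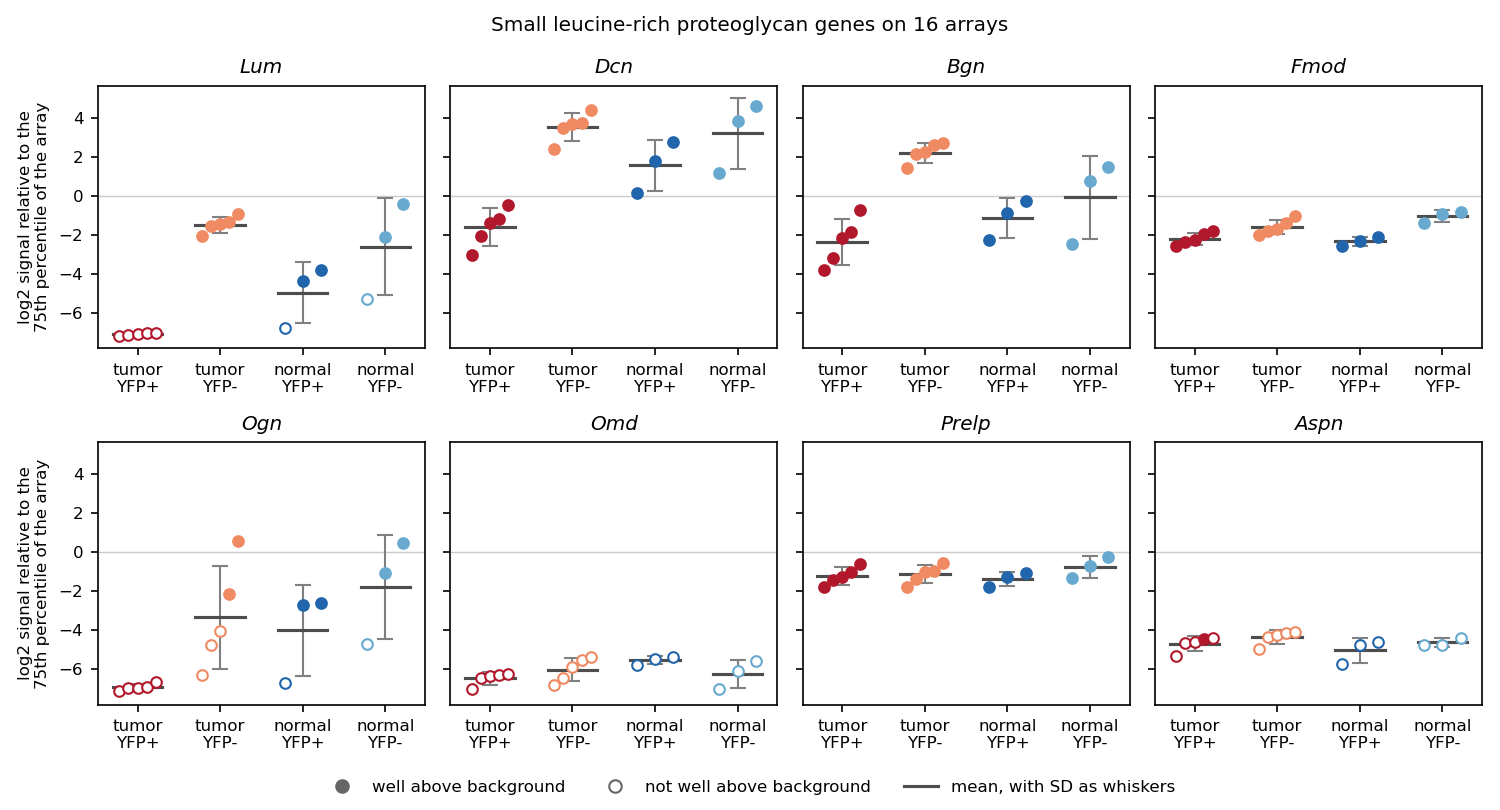
Log2 signal relative to the 75th percentile of the array (vertical axis) of the 8 genes in the 4 groups (horizontal axis), 1 point per array, with the group mean and SD. Filled points are well above background and open points are not. For Lum, Dcn and Bgn the 5 tumor YFP+ points lie below all 5 tumor YFP- points, while the Omd points are open on all 16 arrays.

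Dcn encodes decorin, which binds collagen I and TGF-β and carries a single chondroitin or dermatan sulfate chain. Array values below follow the title numbers 23547, 23548, 23550, 23551 and 23677 in tumor and 23912, 23916 and 23917 in normal pancreas. The Dcn signal was -0.44, -1.36, -3.01, -1.15 and -2.03 in tumor YFP+ arrays, against 3.75, 2.42, 3.70, 3.49 and 4.39 in tumor YFP- arrays. Every tumor YFP- array was above the 75th percentile of its array and every tumor YFP+ array below it, so the groups did not overlap. The means were -1.60 ± 0.97 in YFP+ and 3.55 ± 0.72 in YFP- arrays (SD, n = 5 each), a 35.5-fold lower signal in YFP+ arrays (log2 difference -5.15 ± 0.67, SE, 95% confidence interval -6.58 to -3.72, limma adjusted p = 6.03e-04). Within the 4 slides, each of which was scanned as a set and held both tumor populations, the difference was -4.96, -4.45, -7.40 and -4.55.

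Bgn encodes biglycan, the closest relative of decorin in the family, which usually carries a pair of chondroitin or dermatan sulfate chains. Its signal was -0.73, -1.85, -3.19, -2.15 and -3.80 in tumor YFP+ arrays, against 2.27, 2.14, 2.59, 2.73 and 1.42 in tumor YFP- arrays. The YFP+ arrays were again all below the 75th percentile, spread over about 3 log2 units, and the YFP- arrays were all above it within a narrower span. The means were -2.35 ± 1.20 in YFP+ and 2.23 ± 0.51 in YFP- arrays (SD, n = 5 each), 23.9-fold lower in YFP+ arrays (-4.58 ± 0.71, SE, adjusted p = 0.00204). Within slides the difference ran from -5.94 to -3.72.

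Lum encodes lumican, a keratan sulfate proteoglycan that limits the width of collagen fibrils. It was well above background on 9 of 16 arrays. Its signal was -7.06, -7.00, -7.11, -7.19 and -7.01 in tumor YFP+ arrays, against -0.92, -2.05, -1.35, -1.44 and -1.56 in tumor YFP- arrays. None of the 5 tumor YFP+ arrays and all 5 tumor YFP- arrays were well above background. Because the YFP+ values sit in the range where the software sets a surrogate, their narrow spread (SD 0.08, mean -7.07) is not a measure of replicate error, and the YFP- mean was -1.46 ± 0.41 (SD, n = 5). Lum was at least 10.6-fold lower in tumor YFP+ arrays, counting each dim array at its lowest signal well above background (106 to 114 intensity units). The fitted difference was -5.61 ± 0.71 (SE, adjusted p = 5.17e-04), and within slides it ran from -6.20 to -4.96. With dim values raised to that lowest signal it was -3.41 (adjusted p = 0.00115), and with normexp background correction -2.55.

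Ogn encodes osteoglycin, also called mimecan, and was well above background on 6 of 16 arrays. Its signal was -6.91, -6.67, -6.95, -6.93 and -7.09 in tumor YFP+ arrays, against -2.15, -6.31, -4.73, -4.03 and 0.56 in tumor YFP- arrays. None of the YFP+ arrays and 2 of the YFP- arrays (23547 and 23677) were well above background, and the YFP- arrays spread over almost 7 log2 units. On the scaled values the groups did not overlap. The lowest YFP- array, 23548, was however below background, at 27.3 intensity units against 23.7 to 28.6 on the YFP+ arrays. Ogn was at least 2.91-fold lower in YFP+ arrays by the same bound, but the difference of -3.58 ± 1.22 (SE) did not pass (adjusted p = 0.222). With normexp background correction it was -2.45 with an adjusted p of 0.0496, and with dim values raised -1.98 (adjusted p = 0.424).

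Fmod encodes fibromodulin, which shares its collagen binding site with lumican, and was well above background on all 16 arrays. Its signal was -1.95, -2.56, -2.35, -1.79 and -2.26 in tumor YFP+ arrays, against -1.71, -1.04, -2.0, -1.78 and -1.40 in tumor YFP- arrays. These groups overlapped, and the difference was -0.59 (95% confidence interval -1.04 to -0.15, adjusted p = 0.248). The interval does not reach the size of the Lum, Dcn or Bgn differences.

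Prelp encodes a basement membrane and cartilage protein that binds heparan sulfate through a basic end of the molecule. It was well above background on all 16 arrays, with means of -1.20 ± 0.45 in tumor YFP+ arrays and -1.12 ± 0.47 in tumor YFP- arrays (SD, n = 5 each). The difference was -0.08 with a 95% confidence interval from -0.69 to 0.53 (adjusted p = 0.963), and its sign turned under some of the alternatives.

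Omd (osteomodulin, a bone member of the family) was well above background on 0 of 16 arrays, and Aspn (asporin, a decorin relative with a run of aspartates and no sugar chain) on 1 of 16, the tumor YFP+ array 23677. Neither was tested, and their levels are not detectable at this signal over background. The measured Omd means were -6.46 in tumor YFP+ against -6.01 in tumor YFP- arrays, and in normal pancreas -5.53 in YFP+ against -6.22 in YFP- arrays. For Aspn they were -4.67, -4.36, -5.01 and -4.62 in the same order of groups.

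Markers of other cell types differed between the same tumor populations. Of 16 tested fibroblast and stellate cell markers 8 fell in tumor YFP+ arrays and 0 rose, with a median of -2.01 (-1.75 with Pdgfra at its bound). Among them were the receptor genes Pdgfrb (-4.67 ± 0.66, SE, adjusted p = 0.00108, well above background on 1 of 5 tumor YFP+ arrays) and Pdgfra (at least 2.90-fold lower, adjusted p = 0.00331), and Sparc (-4.09 ± 0.51, SE). Thy1, Pdpn, Fap, Pi16, Gli1, Tcf21, Cdh11 and Des did not pass, and Gli1 had the higher mean in tumor YFP+ arrays (by 0.45). The summed signal of the 18 markers on the array was 10.6 to 16.3 in tumor YFP+ arrays. In tumor YFP- arrays it was 43.2 to 64.1, and the ranges do not overlap. Signals were summed on the linear scale, so bright markers weigh most. The brightest tested were Sparc in tumor YFP- (mean 4.77) and Pdpn in tumor YFP+ arrays (mean 2.36). Between 10 and 14 of the 18 were well above background on a tumor YFP+ array, and 14 to 16 on a tumor YFP- array. Dpt and Meox1 were not well above background on any tumor array, and Pdgfra on none of the tumor YFP+ arrays. The part of these markers in the differences of Lum, Dcn and Bgn was not tested.

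Other marker lists moved too. In tumor YFP+ arrays 3 of 4 mesothelial, 3 of 10 mural and 6 of 10 ductal markers fell. So did 5 of 11 acinar and 7 of 9 mast cell and basophil markers, and 3 of 9 B and plasma cell markers rose. Of all genes 1.63% were lower and 0.761% higher. The mesothelial markers that fell were Msln, Wt1 and Krt19, and Upk3b did not pass. Bnc1, Lrrn4, Muc16 and Upk1b of that list were not well above background on any tumor array. By limma none of 15 macrophage, 10 endothelial or 5 Schwann cell markers passed, with 1, 0 and 0 of them at an unadjusted p under 0.05. The 1 was the leukocyte gene Ptprc, higher in tumor YFP+ arrays by 0.57 without overlap of the groups (limma adjusted p = 0.116). In normal pancreas Ptprc was higher in YFP+ arrays by 0.74, also without overlap (limma adjusted p = 0.262). Between the tumor populations the macrophage markers had a median difference of -0.06.

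**Figure D2:**
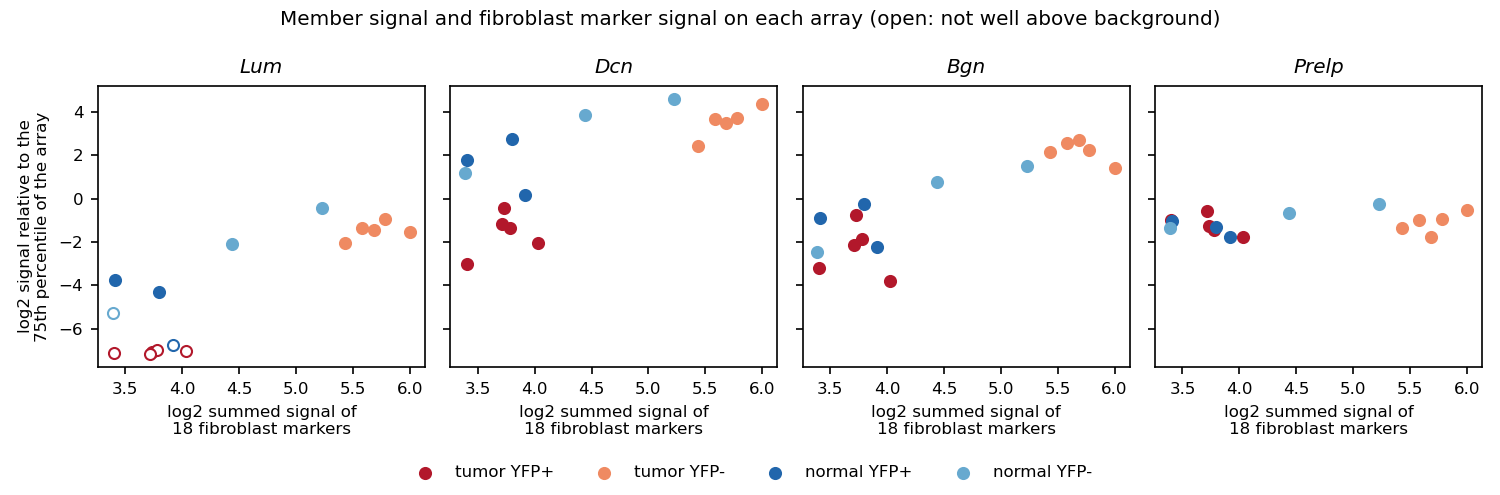
Log2 signal of Lum, Dcn, Bgn and Prelp (vertical axis) against the log2 summed signal of 18 fibroblast markers (horizontal axis) on each of the 16 arrays, colored by group, with open points not well above background. The tumor YFP- arrays lie at the right and high for Lum, Dcn and Bgn, while normal YFP+ arrays hold more Dcn than tumor YFP+ arrays at about the same marker sum. Single markers of that sum differed between these 2 groups, as Pdpn did (mean 2.36 in tumor YFP+, -2.04 in normal YFP+ arrays).

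Across the 16 arrays Pearson's r with the log2 summed fibroblast marker signal was 0.869 for Bgn, 0.840 for Lum, 0.742 for Dcn and 0.235 for Prelp. After each group's mean was taken off, it was 0.498, 0.645, 0.656 and 0.361. These correlations are descriptions over arrays that share slides and groups, and those of Lum include signals below background. They use the linear marker sum, in which bright markers weigh most.

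The second comparison set YFP+ against YFP- macrophages of normal pancreas, with 3 arrays each. By limma 0 of the 6 members passed, with 2 (Lum and Fmod) at an unadjusted p under 0.05, and 5 of all 24181 genes passed (0.0207%), with 1850 (7.65%) at an unadjusted p under 0.05. All 6 members had a lower mean in YFP+ arrays, by 0.61 for Prelp to 2.36 for Lum on the log2 scale, none of them called.

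**Figure D3:**
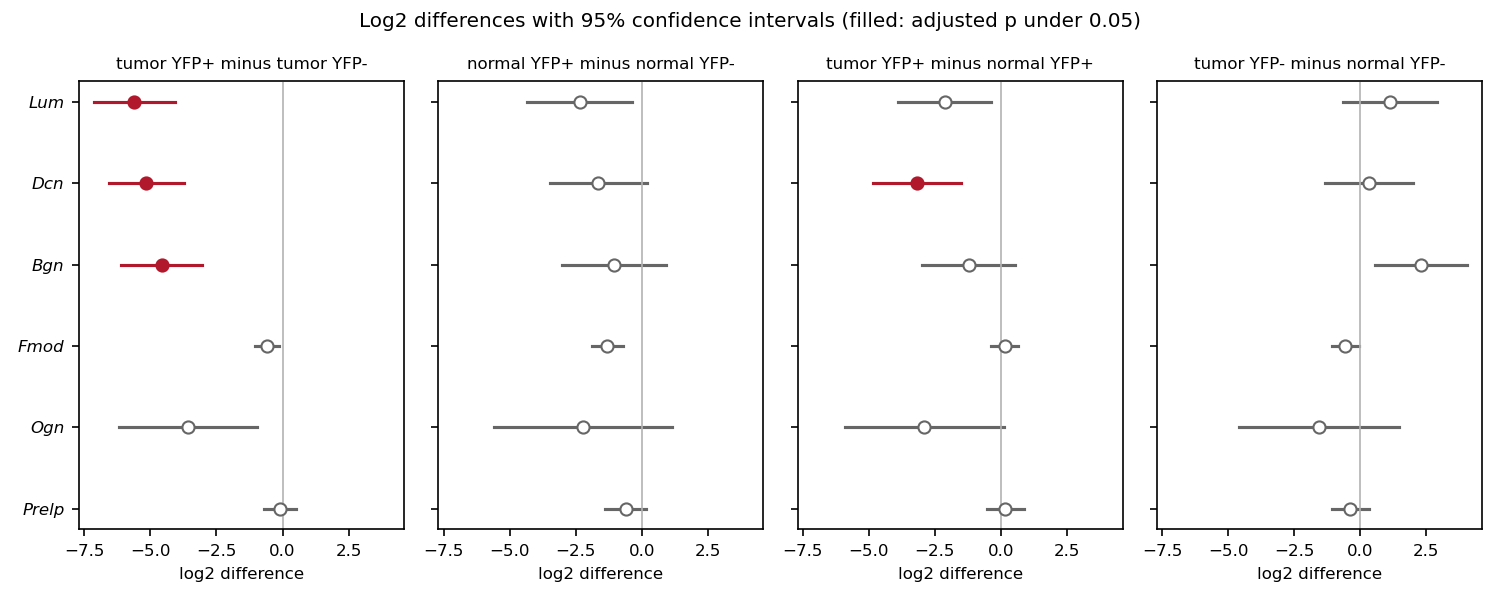
Log2 differences (horizontal axis) with 95% confidence intervals for the 6 members tested (vertical axis) in the 4 comparisons, filled where the adjusted p is under 0.05. Lum, Dcn and Bgn are filled for tumor YFP+ minus tumor YFP-, Dcn for tumor YFP+ minus normal YFP+, and no member in the other 2 panels.

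Dcn in normal pancreas was at 0.17, 2.76 and 1.81 in YFP+ arrays, against 1.17, 3.87 and 4.62 in YFP- arrays. Lum was at -6.74, -4.33 and -3.77 in YFP+ arrays, against -5.29, -2.07 and -0.41 in YFP- arrays. Bgn was at -2.22, -0.24 and -0.89 in YFP+ arrays, against -2.47, 0.78 and 1.49 in YFP- arrays. In all 3 genes the groups overlapped and the arrays numbered 23912 were the lowest of both populations. Ogn, at -6.71, -2.71 and -2.58 in YFP+ arrays and -4.72, -1.06 and 0.47 in YFP- arrays, shows the same 2 low arrays. The differences were -1.64 for Dcn (adjusted p = 0.724), -2.36 for Lum (0.520), -1.05 for Bgn (0.817) and -2.23 for Ogn (0.797).

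Without the arrays numbered 23912, the Lum difference was -2.81 with an adjusted p of 0.0146, and without the normal YFP- array of that number alone it was -3.71 (adjusted p = 0.0160). Of 24 fits without single arrays or replicates, Lum passed in these 2 only, with adjusted p up to 0.993 in the others. With dim values raised the Lum difference was -1.89 (adjusted p = 0.348). Only slides 2 and 3 held both normal populations. The Lum difference was -6.34 on slide 2 and 1.52 on slide 3, that of Dcn was -4.45 and 0.64, and that of Bgn was -3.72 and 1.58, so the sign did not hold within slides. Each of these slides set an array numbered 23912 of one population against an array numbered 23917 of the other. Between arrays of the same title number, which were not shown to be pairs, it was -1.45, -2.26 and -3.36 for Lum, -1.0, -1.11 and -2.81 for Dcn, and 0.24, -1.03 and -2.38 for Bgn. The fibroblast marker sum was 10.6 to 15.1 in normal YFP+ arrays and 10.5 to 37.5 in normal YFP- arrays, which overlap.

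Fmod was the member with the least spread in this comparison, at -2.29, -2.10 and -2.57 in normal YFP+ arrays and -1.37, -0.90 and -0.79 in normal YFP- arrays. These groups did not overlap, and the sign held on both slides (-1.49 and -1.20). The difference of -1.30 ± 0.27 (SE, n = 3 each) had an adjusted p of 0.110. Without the normal YFP- array 23912 it was -1.48 with an adjusted p of 0.0223. That was 1 of 24 fits without single arrays or replicates, and the only 1 of them in which Fmod passed (adjusted p up to 0.630). Of 13 settings 1, array weights, passed (adjusted p up to 0.644 in the others).

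Whether the YFP difference itself differs between tumor and normal pancreas was tested as an interaction. It was -3.52 ± 1.16 for Bgn, -3.51 ± 1.09 for Dcn and -3.25 ± 1.17 for Lum (SE), the tumor difference being the more negative, with adjusted p = 0.540, 0.486 and 0.631. By limma 0 of 6 members passed, where 25 of all genes passed (0.103%). These 3 members had an unadjusted p under 0.05, as did 5.96% of all genes. The Lum value rests on tumor YFP+ signals below background, and with dim values raised it was -1.52 (adjusted p = 0.854). A difference between tissues in the YFP contrast of these genes was therefore not shown.

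The third comparison set tumor YFP+ against normal YFP+ macrophages and uses the same arrays as the comparisons above. Dcn alone of the 6 members fell, against 12.3% of all genes called in either direction and 6.52% lower. Its mean was -1.60 ± 0.97 in tumor YFP+ (SD, n = 5) and 1.58 ± 1.31 in normal YFP+ arrays (SD, n = 3), a 9.07-fold lower signal in tumor (-3.18 ± 0.77, SE, adjusted p = 0.0136), and the groups did not overlap. On the 3 slides that held both it was -4.12, -2.20 and -4.82. The call was lost without the normal YFP+ array 23916 (-2.59, adjusted p = 0.0881), without the normal YFP+ array 23917 (-3.07, adjusted p = 0.0581) and without both arrays numbered 23916 (adjusted p = 0.102).

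Lum was -2.13 in this comparison (adjusted p = 0.119), with none of 5 tumor YFP+ arrays and 2 of 3 normal YFP+ arrays well above background. The bound used above gave no fold over 1 here, and with dim values raised the difference was -0.63 (adjusted p = 0.602). At the measured values it passed without the arrays numbered 23912 (-3.03, adjusted p = 2.66e-04), without the normal YFP+ array 23912 alone (-3.03, adjusted p = 0.0383) and without the normal YFP- array 23912 alone (-2.13, adjusted p = 0.0185), and these sizes and p-values rest on the surrogate signals of the tumor YFP+ arrays. Bgn differed by -1.23 (adjusted p = 0.416), Ogn by -2.91 (0.227; -1.56 with dim values raised), Fmod by 0.14 (0.812) and Prelp by 0.16 (0.852). The fibroblast marker sums of the 2 groups overlap (10.6 to 16.3 in the tumor group, 10.6 to 15.1 in the normal group), but single markers differed. By limma Pdpn (mean 2.36 in the tumor group, -2.04 in the normal group) was higher in tumor by 4.40 (adjusted p = 0.00126). Loxl1 (-1.24, adjusted p = 0.0434) and Cdh11 (-1.57, adjusted p = 0.0377) were lower, and the median of the 16 tested was -0.35. The sums thus do not show that the fibroblast markers were alike. Acinar marker sums were 3.67 to 9.24 in tumor YFP+ and 334 to 491 in normal YFP+ arrays. Ductal marker sums were 11.2 to 19.8 in tumor YFP+ and 3.13 to 7.55 in normal YFP+ arrays, and B and plasma cell marker sums were 41.6 to 71.6 in tumor YFP+ and 4.95 to 9.98 in normal YFP+ arrays. Of the 15 macrophage markers 3 fell in tumor YFP+ arrays, Adgre1 (-0.97), Mrc1 (-1.12) and Lyz2 (-0.97), and 0 rose. The part of these markers in the Dcn result was not tested.

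Between tumor YFP- and normal YFP- macrophages 0 of 6 members passed by limma, where 16.1% of all genes passed. At an unadjusted p under 0.05 there were 2 members (Bgn and Fmod) and 30.5% of all genes, so the members' share was near that of all genes. Bgn came closest, at 2.23 ± 0.51 in tumor YFP- (SD, n = 5) and -0.06 ± 2.11 in normal YFP- arrays (SD, n = 3), a difference of 2.30 ± 0.82 (SE, adjusted p = 0.0719). Of 24 fits without single arrays or replicates, Bgn passed in 2, with adjusted p up to 0.342 in the others. These were without the normal YFP- array 23917 (3.07, adjusted p = 0.0368) and without both arrays of that number (3.07, adjusted p = 0.0484). Of 12 settings 2 passed, with adjusted p up to 0.119 in the others. These were normexp background correction (2.06, adjusted p = 0.0303) and array weights (1.70, adjusted p = 0.0422). On the 3 slides that held both groups the Bgn difference was 0.65, 3.89 and 1.49. The fibroblast marker sums were 43.2 to 64.1 in tumor YFP- and 10.5 to 37.5 in normal YFP- arrays. In tumor YFP- arrays the sums were 6.10 to 13.3 for acinar, 28.2 to 39.96 for ductal, 6.15 to 14.8 for mesothelial and 16.3 to 62.4 for mast cell and basophil markers. In normal YFP- arrays these sums were 427 to 999, 4.55 to 5.56, 0.41 to 1.24 and 1.62 to 5.94. Of the macrophage markers Adgre1 and Mrc1 fell and Cd14 rose. The part of these markers in the Bgn difference was not tested. Lum (1.13), Dcn (0.33), Ogn (-1.56), Fmod (-0.57) and Prelp (-0.37) had adjusted p-values from 0.127 to 0.794.

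Pearson's r over the 16 arrays was 0.942 between the neighbours Lum and Dcn, 0.913 between Lum and Bgn and 0.875 between Dcn and Bgn, and 0.781, 0.745 and 0.814 after group means were taken off. Ogn followed Dcn (0.838). Fmod gave 0.622 with Lum and 0.627 with Dcn (0.158 and 0.305 after group means were taken off), and 0.515 with its neighbour Prelp. Prelp gave 0.405 with Lum, 0.395 with Dcn and 0.289 with Bgn, and 0.579, 0.581 and 0.402 after group means were taken off. All values share the same 16 libraries and are descriptions. Those of Lum and Ogn include signals below background, as these genes were well above it on 9 and 6 of 16 arrays.

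Genes with the pattern most like each member, are given by Pearson's r over the 16 arrays. For Bgn they were Col3a1 (0.984) and Col1a2 (0.964), which encode chains of fibrillar collagens, and Mgp (0.963), which encodes an inhibitor of calcification. For Lum they were the collagen VI gene Col6a1 (0.977), a probe without a gene name and Fstl1 (0.968). For Dcn they were the transcription factor gene Nfib (0.973), Fermt2 (0.951), which links integrins to the cytoskeleton, and Col6a1 (0.949). Lum and Fermt2 were well above background on 9 of 16 arrays each and Col6a1 on 13. The r values with these genes thus rest partly on signals below background. Ogn was closest to Lama4 (0.930), a laminin chain, Igfbp5 (0.926) and Smoc2 (0.922). These were well above background on 9, 5 and 8 of 16 arrays and Ogn on 6, so their r values rest partly on signals below background. For Fmod the nearest were Smarcd3 (0.900), Mgam (0.900) and Svep1 (0.885), and for Prelp they were Vwc2l (0.902), an unnamed transcript and Ptf1a (0.899).

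Collagen genes, among them those of fibrillar and beaded collagens, were examined between the tumor populations as binding partners of the family. Of 11 tested genes 9 fell in tumor YFP+ arrays and 0 rose, with a median of -3.88. The largest differences were in Col6a1 (-5.56 ± 0.88, SE, adjusted p = 0.00250) and Col6a2 (-5.13 ± 0.93), followed by Col5a1 (-4.57), Col1a1 (-4.39, adjusted p = 1.37e-04) and Col1a2 (-4.18). Col14a1, whose product binds decorin, had 0.11 in tumor YFP+ arrays and 0.17 in tumor YFP- arrays (-0.07, adjusted p = 0.972).

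**Figure D4:**
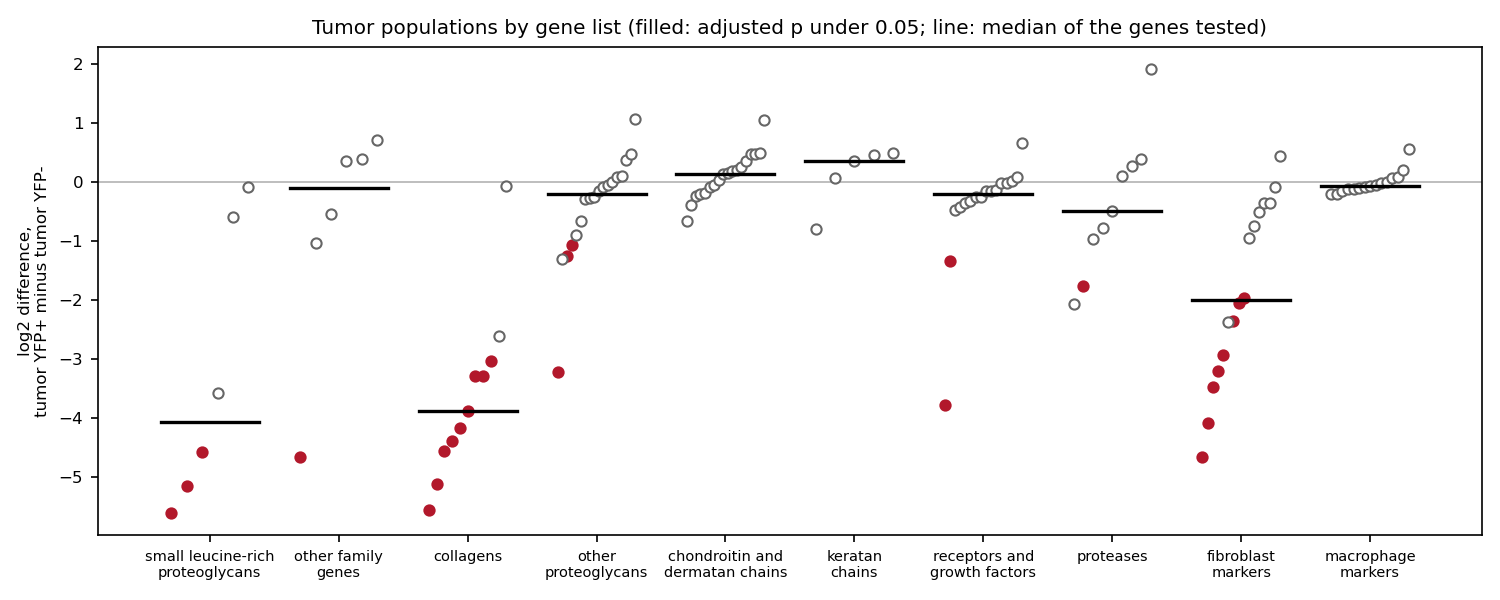
Log2 differences, tumor YFP+ minus tumor YFP- (vertical axis), of the tested genes of 10 lists (horizontal axis), 1 point per gene, filled where the adjusted p is under 0.05, with a line at the list's median. The medians of fitted differences lie at -4.08 for the 6 family members (-2.48 with the genes below background in tumor YFP+ arrays at their bounds), -3.88 for collagens and -2.01 for fibroblast markers, and between -0.49 and 0.37 for the others.

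Of 9 other genes of the family, 6 were tested and 1 fell. This was Podn, which encodes podocan, at least 7.0-fold lower in tumor YFP+ arrays (-4.67 ± 0.59, SE, adjusted p = 5.17e-04). It was well above background on none of the 5 tumor YFP+ and all 5 tumor YFP- arrays. The median of the 6 was -0.09. Podn was also lower in tumor YFP+ than in normal YFP+ arrays, at least 1.77-fold (adjusted p = 0.0179).

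Enzymes that build the sugar chains were examined next. By limma 0 of 18 tested genes of chondroitin and dermatan sulfate synthesis passed between the tumor populations (median 0.15, 1 at an unadjusted p under 0.05), and 0 of 5 of keratan sulfate synthesis (median 0.37, 1 at an unadjusted p under 0.05). Between tissues, 4 of the 18 genes passed in YFP+ cells (3 lower, 1 higher) and 5 of 18 in YFP- cells (3 lower, 2 higher), where 12.3% and 16.1% of all genes passed. Dse, which encodes the epimerase that turns chondroitin into dermatan sulfate, fell in tumor in both populations (YFP+ -2.16 ± 0.44, adjusted p = 0.00399, and YFP- -2.27 ± 0.44, adjusted p = 0.00251, SE). Its relative Dsel and the sulfotransferase gene Chst7 also fell in both, and Chst11, a chondroitin 4-O-sulfotransferase gene, rose in both (YFP+ 2.34 ± 0.42, adjusted p = 0.00177, and YFP- 2.82 ± 0.42, adjusted p = 3.79e-04). Chst11 was well above background on 1 of 3 normal YFP- arrays, so its YFP- size rests partly on signals below background. Chsy1, a chondroitin synthase gene, rose in the YFP- comparison by 0.80 (adjusted p = 0.0275). Of the 5 keratan sulfate genes 2 rose in YFP+ cells, and 2 rose and 1 fell in YFP- cells. B3gnt7, which extends keratan chains, rose in tumor in both populations (YFP+ 2.61 ± 0.40, adjusted p = 5.57e-04, and YFP- 1.93 ± 0.40, adjusted p = 0.00440).

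Of 16 tested receptors and growth factors known to bind family members, 2 fell in tumor YFP+ arrays and 0 rose, with a median of -0.20. Tgfb2, a growth factor bound by decorin and biglycan, was at least 3.47-fold lower (adjusted p = 0.00320), and the collagen receptor subunit gene Itga2 fell by 1.33 on the log2 scale (adjusted p = 0.0293). The biglycan receptor Tlr2 had 2.06 in tumor YFP+ arrays and 2.20 in tumor YFP- arrays (adjusted p = 0.879), and Tlr4 at -3.41 and -3.51 (adjusted p = 0.976). The co-receptor gene Cd14 differed by -0.16 (adjusted p = 0.906).

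Among 9 tested proteases known to cut family members, 1 fell in tumor YFP+ arrays, Mmp3, which encodes stromelysin (-1.76 ± 0.25, SE, adjusted p = 0.00108), and the median was -0.49. Between tissues 3 of the 9 rose and 0 fell in each population, where 12.3% of all genes passed in YFP+ and 16.1% in YFP- cells. Mmp14 rose in tumor in both populations (YFP+ 3.38 ± 0.23 and YFP- 3.50 ± 0.23, SE), as did Mmp13 (4.19 ± 0.36 and 2.79 ± 0.36) and Mmp2 (3.09 ± 0.65 and 2.36 ± 0.65). Mmp2 was well above background on 1 of 3 normal YFP+ and 2 of 3 normal YFP- arrays, and Mmp13 on 2 of 3 normal YFP+ arrays. These sizes thus rest partly on signals below background. The acinar and ductal marker sums given above also differed between tissues. Their part in these values and in those of the chain enzymes was not tested. Of 18 other tested proteoglycan genes 3 fell between the tumor populations, Tgfbr3 (-3.21 ± 0.45, adjusted p = 0.00108), Agrn (-1.26 ± 0.20) and Acan (-1.06 ± 0.19), and the median was -0.20. Srgn, the main proteoglycan gene of blood cells, had 3.68 in tumor YFP+ arrays and 3.76 in tumor YFP- arrays (adjusted p = 0.915).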

How the data were processed

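Per the labels, RNA was amplified, labelled with Cy5 and hybridized to 4x44K Agilent arrays. Per the file headers, the authors' scanner files hold the red channel as intensity values, background-subtracted and detrended, with a surrogate for spots below the error. They were made with Agilent Feature Extraction 11.5.1.1, per the submitters' processing notes. The deposited table holds normalized log2 values and served as an alternative. Its columns matched their own arrays at r = 0.9957 or more across probes, and its normalization is not given in the sources used here.

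Control spots and outlier spots were left out, spots of a probe averaged, and signals scaled as log2 minus the array's 75th percentile. A gene was tested by its brightest probe if well above background on at least 3 of 16 arrays (24181 genes). Names came from a RefSeq table by accession (28745 probes), symbol (2036) or synonym (162), and otherwise from the file (8486). Group means over all 16 arrays were fitted with limma 3.58.1 (lmFit, eBayes; R 4.3.3), two-sided, with Benjamini-Hochberg adjustment over all genes at 0.05. The code was tested on simulated data.

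The members, gene lists and markers were chosen with earlier results of these data known. All 8 members are named, with the 3 genes most alike each and up to 5 genes of a list with the largest difference between the tumor populations. Other list genes named were picked after their values were seen. Title numbers were checked as pairs. Deviations of same-numbered arrays correlated across genes at r = -0.29 to 0.316, with some values under 0.1, so they are not treated as pairs. Alternatives covered background correction, normalization, the filter, slides, array weights and leaving out arrays, those of single arrays being added after the data were seen. The number of arrays limits the precision.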

Additional observations from a re-analysis of the deposited data

Results flagged for a closer look

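Of 16 sets of arrays examined (8 genes in the 2 groups of 5 arrays), 3 held an array whose gap to its nearest neighbour was large for the group's range (Dixon's 95% critical value, which chance passes in about 1 of 20 groups). The tumor YFP+ array 23677 was low for Omd, at -7.02 on the log2 scale. The tumor YFP+ array 23551 was low for Aspn, at -5.31, and so was the tumor YFP- array 23547, at -4.97. None of these 3 values was well above background, and the 2 genes were not tested.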

How the results depend on the processing

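Between the tumor populations Lum, Dcn and Bgn kept direction and call in all 13 alternative settings and all 24 fits without single arrays or replicates, over settings from -5.62 to -2.55 for Lum (the smallest with normexp), -5.20 to -4.62 for Dcn and -4.73 to -3.89 for Bgn. Of 1092 member values under alternatives, 1072 kept their side of the threshold, 17 passed newly, 3 were lost and 0 called values changed sign. Normexp added Ogn.

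Counts moved more. Between the normal populations, where 5 genes and 0 members passed, 0 genes passed with normexp, with the replicate block and with only the arrays compared, 2 with slide as a fixed block, 8 with slide as a random block or dim values raised to the floor, 10 without the filter, 15 in the deposited values and 16 after quantile normalization. Array weights gave 1153 genes and 2 members there (Lum and Fmod), 4477 genes and 3 members between the YFP+ groups, 9343 genes and 3 members between the YFP- groups, and 350 genes for the interaction. For the interaction the count was 42 with raised dim values, 16 with the replicate block and 8 with slide as a fixed block, against 25. Between the YFP- groups, normexp called 1 member (Bgn), and the fit on the arrays compared 2304 genes, against 3897. The replicate block changed no member's call; title numbers were not shown to pair the arrays, and the correlations are given with the processing. The cause of these changes was not tested.

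Leaving out single arrays or replicates gave 352 to 659 genes and 3 members between the tumor populations, 0 to 336 genes and 0 to 2 members between the normal ones, 1932 to 3266 genes and 0 to 2 members between the YFP+ groups, 2243 to 4799 genes and 0 to 1 member between the YFP- groups, and 8 to 69 genes for the interaction. Normexp moved the median of all genes to -0.121 between the tumor populations, against 0.00218, to 0.0611 between the YFP- groups, against -0.186, and to -0.0749 for the interaction, against 0.05. Quantile normalization and the deposited values gave -0.0696 and -0.0679 between the YFP- groups. Signal over background limits Lum and Ogn in tumor YFP+ arrays to bounds.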
